A study of Rattus norvegicus with 10 samples.

Results

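Transcripts of 6 genes of the glial cell line-derived neurotrophic factor (GDNF) family were compared between rat hippocampal cultures given tetrodotoxin (TTX) and cultures given vehicle. The genes were the ligand genes Gdnf, Nrtn (neurturin) and Artn (artemin), the coreceptor genes Gfra1 and Gfra2, and Ret, the receptor tyrosine kinase that they share. They were taken by name from a table of 14354 genes, and all 6 were present. The group was selected on family membership and on the TTX against vehicle counts of these same libraries. Those counts were known when it was put together, so the values of these 6 genes in that contrast are described without p-values. Where a fit over all genes is said to call one of them or not, this is a description and not a test of it. The cultures were mixed neurons and glia from the hippocampus of Sprague-Dawley embryos at embryonic day 18, kept in serum-free neurobasal medium with B27. At 19 days in vitro they received vehicle or 1 µM TTX, which blocks voltage-gated sodium channels, and RNA was taken 24 h later. Each group held 5 libraries, numbered 1 to 5. The labels do not say whether the libraries of a group came from separate cultures, so the spread between them may be technical.

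GDNF family ligands are secreted dimers related to the TGF-beta superfamily. Each binds a coreceptor that is held to the outer membrane by a lipid anchor, and the complex brings together Ret molecules, whose kinase then signals through the Ras-ERK and PI3K-Akt arms. GDNF prefers the Gfra1 protein, neurturin Gfra2, artemin Gfra3 and persephin (Pspn) Gfra4, with some crossing between them. The family is known for the survival of dopamine, motor, sensory and enteric neurons. In the hippocampus GDNF and Gfra1 have been linked to synapse formation, and where Ret is missing Gfra1 can signal with the adhesion molecule Ncam1.

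Gdnf and Ret had the largest differences of the family, and Artn, a ligand of the same family, had counts that overlapped between the groups. For that reason the stretches before the annotated start of these 3 genes are shown. They are the 250 bases before the RefSeq start of each gene on the rat assembly GRCr8, in the direction of the gene, with motif matches in capitals. Gdnf lies at chr2:58621077-58621326 on the plus strand, Ret at chr4:153040557-153040806 on the minus strand and Artn at chr5:136753458-136753707 on the minus strand.
Gdnf: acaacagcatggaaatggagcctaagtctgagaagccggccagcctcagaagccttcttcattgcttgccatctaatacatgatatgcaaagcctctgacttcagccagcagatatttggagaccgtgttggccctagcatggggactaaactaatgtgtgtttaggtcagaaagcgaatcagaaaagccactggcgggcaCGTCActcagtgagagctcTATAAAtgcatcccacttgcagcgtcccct
Ret: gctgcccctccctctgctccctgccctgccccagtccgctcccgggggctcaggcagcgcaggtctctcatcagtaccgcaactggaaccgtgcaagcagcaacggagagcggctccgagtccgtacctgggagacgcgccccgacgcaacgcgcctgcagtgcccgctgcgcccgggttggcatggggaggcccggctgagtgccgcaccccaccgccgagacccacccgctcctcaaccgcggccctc
Artn: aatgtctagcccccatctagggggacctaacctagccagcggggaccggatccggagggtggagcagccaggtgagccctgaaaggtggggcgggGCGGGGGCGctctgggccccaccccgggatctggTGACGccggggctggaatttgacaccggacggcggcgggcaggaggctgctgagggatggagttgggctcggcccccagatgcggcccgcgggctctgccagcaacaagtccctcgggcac
A set of 5 motifs was searched on both strands, namely the full cAMP response element TGACGTCA, its core TGACG, the AP-1 element TGANTCA, the Egr element GCGGGGGCG and the E-box CACGTG, and TATAAA was searched on the strand of the gene. The core lies within the full element, so those 2 overlap. The Gdnf stretch held the core on the opposite strand, 49 to 45 bases before the start, and TATAAA 30 to 25 bases before it. The Artn stretch held the core 121 to 117 bases and the Egr element 155 to 147 bases before its start. None of these letters stood in the windows of Ret, Gfra1 or Nrtn, and for Gfra2 no window was used. Of 33469 rat promoter windows, 18.2% held the core, 8.06% held TATAAA, 2.45% the Egr element, 6.34% the AP-1 element, 5.59% the E-box and 1.59% the full element. A match describes letters in a window and does not show that a factor binds there.

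The libraries held 52254261 to 77757538 counts with vehicle and 58785925 to 84921962 with TTX. Npas4, Arc, Fos and Egr1, genes that neuronal activity induces, were all lower with TTX, by log2 fold changes of -9.80, -3.60, -2.30 and -1.03. In the fit over all genes 70.5% of 13088 tested genes passed an adjusted p of 0.05 (35.4% higher and 35.0% lower), so a share of called genes near these is not a result about a gene list. The median log2 fold change over all tested genes was 0.01.

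Gdnf, the ligand that gave the family its name, was the member with the largest difference between the groups. With vehicle it had 62, 61, 76, 86 and 98 counts in replicates 1 to 5, or 1.19, 0.999, 1.12, 1.32 and 1.28 CPM (counts scaled to library size, with TMM factors between libraries). With TTX it had 7, 13, 8, 17 and 5 counts, or 0.0823, 0.200, 0.108, 0.286 and 0.0849 CPM. Every TTX library lay below every vehicle library, and the highest, TTX replicate 4, was still below the lowest vehicle library. The fitted log2 fold change was -2.98 ± 0.30 (SE, n = 5 in each group), 7.87-fold lower, with a 95% interval of 5.04-fold to 12.3-fold. Only 78 of the 13088 tested genes had a lower log2 fold change. All TTX libraries together held 50 Gdnf counts, and the spread was wider there, with a coefficient of variation of 58.3% against 10.9% with vehicle. In RNA from whole cultures, fewer cells of a type and less RNA per cell cannot be told apart.

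Nrtn, whose product prefers Gfra2, was closer in the groups. Its CPM was 3.22, 2.82, 2.74, 2.71 and 2.83 with vehicle and 2.12, 2.83, 2.57, 1.56 and 2.57 with TTX. The ranges overlapped through TTX replicate 2 alone, and the other 4 TTX libraries lay below all vehicle libraries. The log2 fold change was -0.29, with a 95% interval of -0.61 to 0.02, and it was not called in the fit over all genes. Without TTX replicate 2 it was -0.38, past the threshold of that fit, and without TTX replicate 4 it was -0.18 and not past it. TTX replicate 4 had the lowest Nrtn and the highest Gdnf of its group.

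Artn, the ligand known for sensory and sympathetic neurons, was the rarest of the 6 with vehicle. Its counts were 20 to 35 in the vehicle libraries and 20 to 40 in the TTX libraries. In CPM these were 0.555, 0.377, 0.293, 0.368 and 0.458 with vehicle and 0.400, 0.616, 0.406, 0.370 and 0.340 with TTX. The groups overlapped, and the log2 fold change of 0.06 had a 95% interval of -0.49 to 0.62, which held differences in both directions. It turned to -0.04 without vehicle replicate 3 and to -0.11 without TTX replicate 2.

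Ret, the signalling receptor, was the receptor gene with the largest difference. It had 187, 168, 176, 172 and 155 CPM with vehicle and 47.9, 48.3, 48.3, 39.6 and 40.8 CPM with TTX. The groups lay far apart, with the lowest vehicle library above 3 times the highest TTX library. The log2 fold change was -1.93 ± 0.06 (SE, n = 5 in each group), 3.81-fold lower, with a 95% interval of 3.47-fold to 4.19-fold. Of the tested genes, 228 had a lower log2 fold change. With 2354 to 12014 counts per library, Ret was measured far more precisely than Gdnf.

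Gfra1, the preferred coreceptor of GDNF, was lower by less. It had 181, 172, 173, 170 and 179 CPM with vehicle and 120.4, 122, 134, 122 and 115 CPM with TTX. All TTX libraries lay below all vehicle libraries. The log2 fold change was -0.51 ± 0.04 (SE), 1.43-fold lower, with a 95% interval of -0.59 to -0.44 on the log2 scale.

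Gfra2, the preferred coreceptor of neurturin, had the smallest of the differences whose ranges did not overlap. Its FPKM, a level per transcript length, was 6.38, 6.25, 5.93, 5.86 and 5.78 with vehicle and 5.09, 5.29, 4.50, 5.02 and 5.58 with TTX. The CPM ranges were 16.7 to 18.2 and 12.7 to 15.9, and TTX replicate 5 came nearest to the vehicle libraries. The log2 fold change was -0.26 ± 0.06 (SE), 1.20-fold lower.

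Of the 6 genes, all passed the low-count filter, 4 were called lower, none higher and 2 were not called, in a table where 35.0% of tested genes were called lower. The groups did not overlap in 4 of them, against 57.3% of all tested genes in either direction. At least 1.5-fold lower and called were Gdnf and Ret, and 11.9% of tested genes met that rule. Since this contrast was used to choose the genes, nothing is read from these counts. The authors' deposited table gives log2 fold changes of -2.99 for Gdnf, -1.93 for Ret, -0.51 for Gfra1, -0.26 for Gfra2, -0.30 for Nrtn and 0.06 for Artn.

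**Figure D1:**
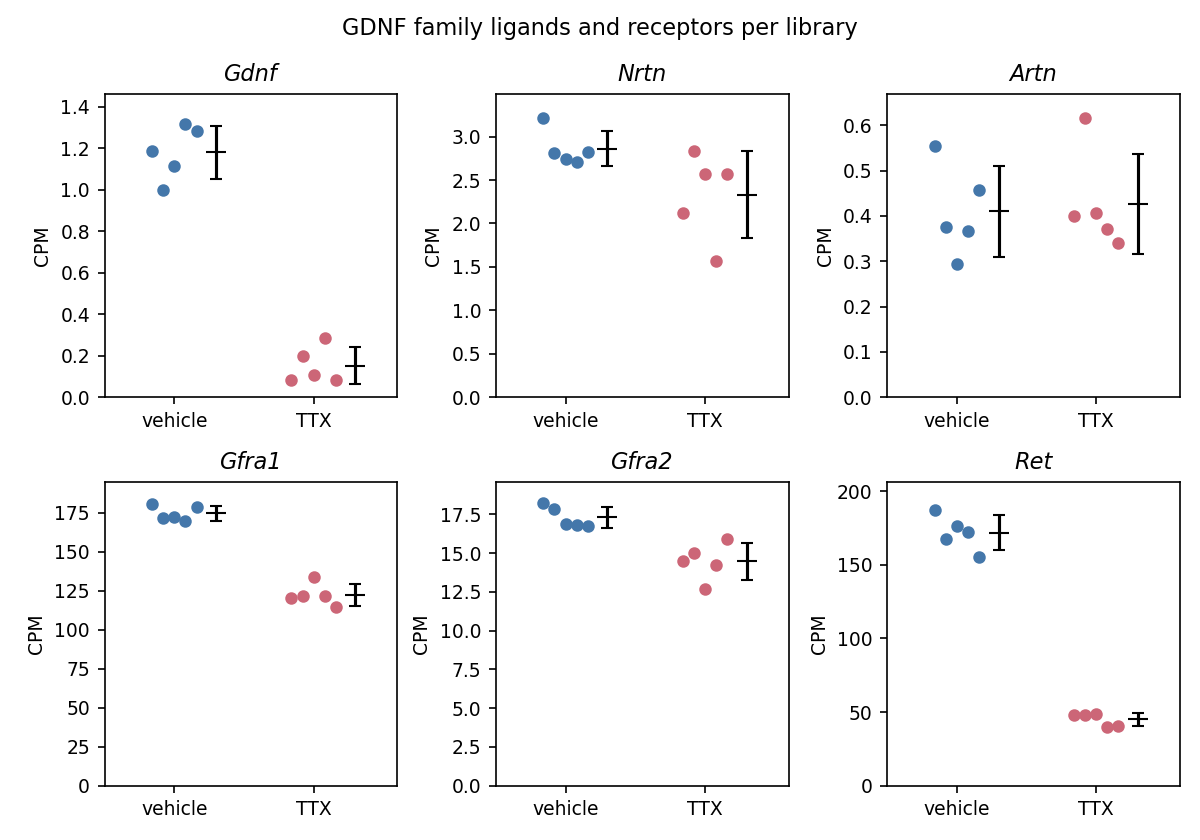
Each panel plots the CPM of 1 gene (vertical axis from 0) in the 5 vehicle and 5 TTX libraries, one point per library, with the group mean and SD as a black bar beside the points. The TTX points of Gdnf, Ret, Gfra1 and Gfra2 lie below all vehicle points, whereas those of Nrtn and Artn overlap with them.

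Levels of different genes were compared per transcript length, as the authors' FPKM (fragments scaled to transcript length and library size). With vehicle the order was Gfra1 at 47.1 ± 1.23 FPKM (SD, n = 5), Ret at 35.0 ± 2.65, Gfra2 at 6.04 ± 0.263, Nrtn at 4.14 ± 0.304, Gdnf at 1.63 ± 0.174 and Artn at 0.293 ± 0.0717. No neighbours in that order overlapped between libraries, so among these 6 genes the receptors stood above the ligands in every vehicle library. Among all genes of the table, Gfra1 was higher than 83.2% and Ret higher than 78.0% by mean vehicle FPKM, whereas Gdnf was higher than 24.9%.

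With TTX the order was Gfra1 at 33.4 ± 2.02 FPKM, Ret at 9.16 ± 0.838, Gfra2 at 5.10 ± 0.399, Nrtn at 3.39 ± 0.737, Artn at 0.309 ± 0.0835 and Gdnf at 0.202 ± 0.122. Artn and Gdnf had changed places by their means, but their FPKM overlapped between libraries (0.238 to 0.453 and 0.102 to 0.387), so they were not told apart there. The other neighbours did not overlap. By its percentile among all genes Ret went from 78.0% to 49.2%, Gdnf from 24.9% to 12.3% and Gfra1 from 83.2% to 77.7%.

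**Figure D2:**
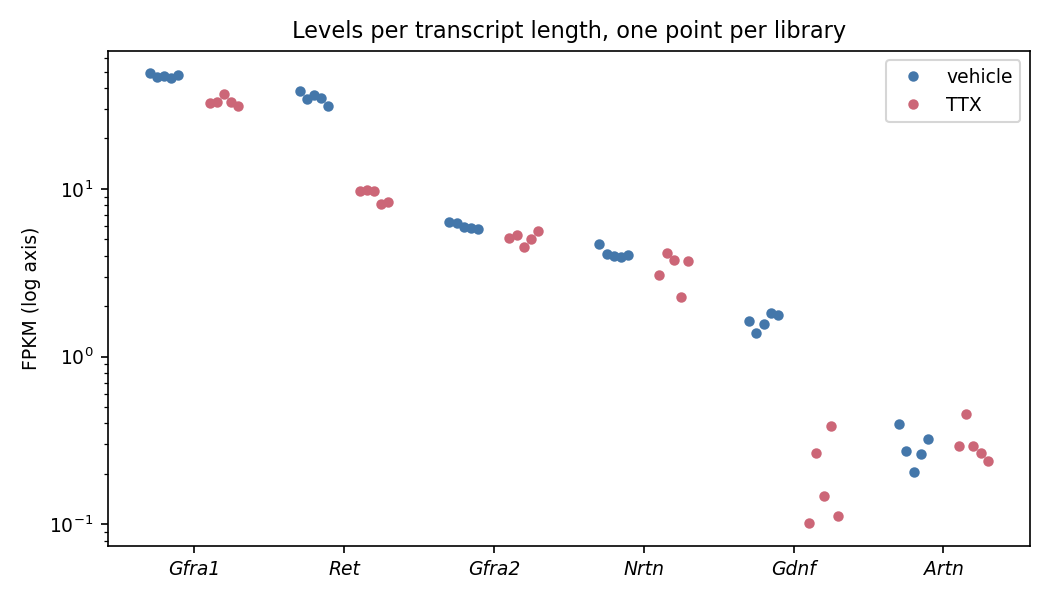
Deposited FPKM on a log axis for the 6 genes, one point per library, with vehicle in blue and TTX in red, ordered by the vehicle mean. Gfra1 and Ret lie above 30 FPKM with vehicle, and with TTX the Ret points lie between 8.12 and 9.83 FPKM and those of Gdnf between 0.102 and 0.387 FPKM.

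The balance between partners can be given within each library, which removes the scaling between libraries. The FPKM of Ret relative to that of Gfra1 was 0.782, 0.738, 0.776, 0.764 and 0.652 with vehicle and 0.297, 0.297, 0.266, 0.245 and 0.269 with TTX. Ret was thus 0.742 ± 0.0531 of Gfra1 with vehicle and 0.275 ± 0.0222 with TTX (mean ± SD, n = 5). Gdnf relative to Gfra1 was 0.0346 ± 0.00384 with vehicle and 0.00607 ± 0.00368 with TTX. Of the summed FPKM of Gdnf, Nrtn and Artn, Gdnf made up 24.0% to 30.3% with vehicle and 2.74% to 13.2% with TTX, the upper end being TTX replicate 4. Nrtn relative to Gfra2 was 0.684 ± 0.0313 with vehicle and 0.669 ± 0.153 with TTX. These ratios come from the contrast that chose the genes and are not tested.

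**Figure D3:**
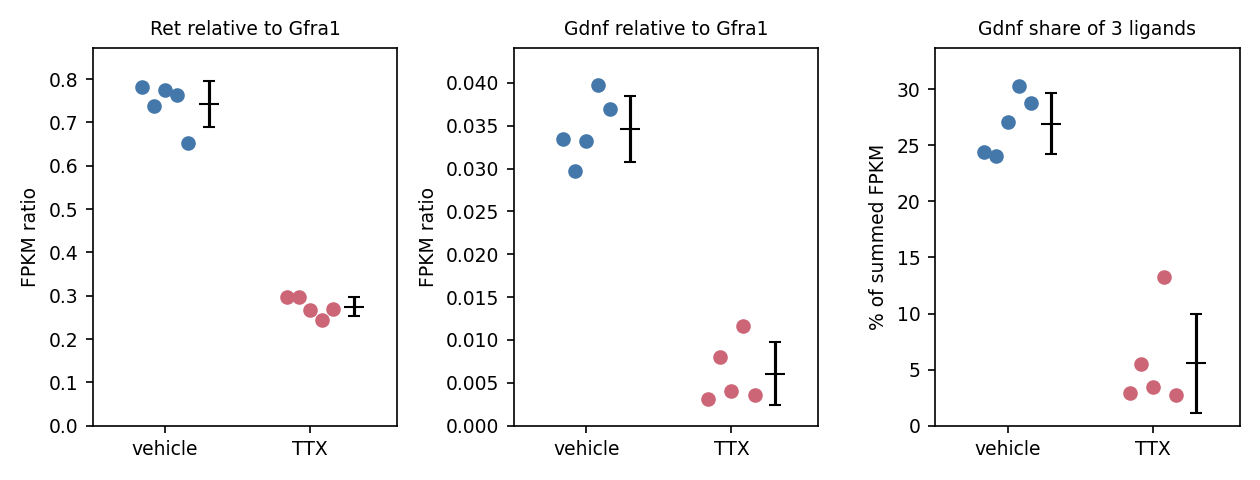
Ratios of FPKM within each library, one point per library with mean and SD beside them: Ret to Gfra1, Gdnf to Gfra1, and Gdnf as a percentage of the summed FPKM of Gdnf, Nrtn and Artn. All 3 quantities are lower in every TTX library than in every vehicle library, and the Gdnf share reaches 13.2% in TTX replicate 4.

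The rest of the family was outside the group and was read in the fit over all genes with edgeR's quasi-likelihood test and Benjamini-Hochberg adjustment. This list and the pathway lists after it were chosen with earlier results of these data known. Their counts and adjusted p-values therefore only describe the fit. From each pathway list, genes were named because they were among the 3 with the lowest p, or with their values known. Of these 5 genes, Gdf15 fell, Gfral rose and 3 did not pass, where 70.5% of all tested genes passed. Gdf15, a distant TGF-beta relative that signals through the Gfral protein and Ret, had 5.94 to 7.91 CPM with vehicle and 1.42 to 2.45 CPM with TTX, without overlap. It fell 3.57-fold (log2 fold change -1.84 ± 0.14 SE, edgeR adjusted p = 2.19e-08). Gfral, its receptor, rose 1.26-fold (log2 fold change 0.33 ± 0.11 SE, edgeR adjusted p = 0.0131), although its CPM of 4.35 to 6.88 with vehicle and 6.41 to 8.12 with TTX overlapped.

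Pspn, the ligand persephin, had a log2 fold change of 0.09 with a 95% interval of -0.37 to 0.55, and Gfra4, its coreceptor, 0.12 with an interval of -0.14 to 0.38. Gfra3, the coreceptor of artemin, had 5 to 26 counts per library and a log2 fold change of 0.13 with an interval of -0.79 to 1.04. All 3 intervals held differences in both directions, so neither a difference nor its absence was shown. Per length, the vehicle means were 3.27 FPKM for Gfra4, 1.81 for Pspn and 0.0943 for Gfra3, beside 1.63 for Gdnf. Whether their libraries overlapped with those of Gdnf is not reported here.

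Of 7 tested genes for alternative receptors and other GDNF-binding or Ret-modulating proteins, 4 rose and 2 fell. Their median log2 fold change was 0.13 against 0.01 over all tested genes, of which 35.4% rose and 35.0% fell. None of the 7 differed by 1.5-fold. Sdc3, a heparan sulfate proteoglycan that binds GDNF, rose from 220 ± 7.12 to 299 ± 12.6 CPM (1.36-fold, edgeR adjusted p = 1.44e-08). Sort1, a sorting receptor, rose 1.12-fold and Itgb1, an integrin subunit, fell 1.17-fold. Ncam1, named after its values were seen, had 475 ± 5.75 CPM with vehicle and 455 ± 15.4 CPM with TTX. Its 1.04-fold lower level was near the threshold (edgeR adjusted p = 0.0459), and the call was lost with library totals, with upper quartile scaling, with no low-count filter, with a filter of 1 CPM in 5 libraries, and without vehicle replicate 1, 2, 3 or 5 or TTX replicate 3 or 4, with adjusted p-values of 0.0294 to 0.177 over its alternatives.

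Adaptor proteins that dock on active Ret, together with its regulators, were mixed. Of 29 tested, 8 rose, 11 fell and 10 did not pass, with a median log2 fold change of -0.01. Over all tested genes 35.4% rose and 35.0% fell, so these counts are not a result about the list. Dok5, a docking protein of Ret, fell from 40.0 ± 1.13 to 11.4 ± 0.910 CPM, 3.50-fold (edgeR adjusted p = 6.93e-13). Shc3, a neuronal Shc adaptor, fell from 92.2 ± 3.39 to 33.6 ± 2.95 CPM, 2.74-fold (edgeR adjusted p = 7.02e-12). Irs2, an insulin receptor substrate, fell 1.63-fold.

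Some relatives of Dok5 and Shc3 went the other way, and other relatives on the list, such as Dok1 and Shc1, are not reported here. The following genes were named after their values were known. Dok4 rose 1.64-fold and Dok6 1.14-fold, and Shc2 rose 1.36-fold. Grb7, an SH2 adaptor, fell 3.19-fold at a low level of 1.99 ± 0.411 CPM with vehicle, Gab2, a scaffold for PI3K, fell 1.97-fold, and the receptor phosphatase Ptprf fell 1.54-fold. In all, 6 of the 29 fell at least 1.5-fold and 1 (Dok4) rose by as much, where 11.9% and 9.33% of all tested genes did so.

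Of 20 tested genes of the Ras-ERK and PI3K-Akt arms 13 rose, 4 fell and 3 did not pass, with a median log2 fold change of 0.16. The shares over all tested genes were 35.4% higher and 35.0% lower. Mtor, the growth kinase, rose 1.88-fold from 91.8 ± 3.07 to 172 ± 6.17 CPM. Mapk8, a JNK kinase, fell 1.73-fold. Pik3r1, a regulatory subunit of PI3K named after its values were seen, rose 1.52-fold.

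A list of genes known as Ret targets from the ureteric bud of the mouse kidney was lower in most of its members. Of 9 tested, 7 fell, 1 rose and 1 (Wnt11) did not pass, with a median log2 fold change of -0.76. The shares over all tested genes were 35.0% lower and 35.4% higher. A fall of at least 1.5-fold was seen in 6 of the 9 and in 11.9% of all tested genes. Etv5, an ETS transcription factor, had 122 to 132 CPM with vehicle and 45.3 to 50.1 CPM with TTX, and fell 2.65-fold (edgeR adjusted p = 4.96e-14). Spry2, a feedback inhibitor of receptor tyrosine kinases, fell from 148 ± 5.10 to 78.0 ± 0.747 CPM, 1.90-fold, and Dusp6, a phosphatase of ERK, 1.80-fold. Further genes of the list were named after their values were seen. Spry1 and Met fell 1.63-fold and 1.70-fold, Etv4 fell 1.15-fold, and the chemokine receptor Cxcr4 rose 1.69-fold. As background, several of these genes respond to ERK signalling from many receptors, so the list is not specific to Ret.

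**Figure D4:**
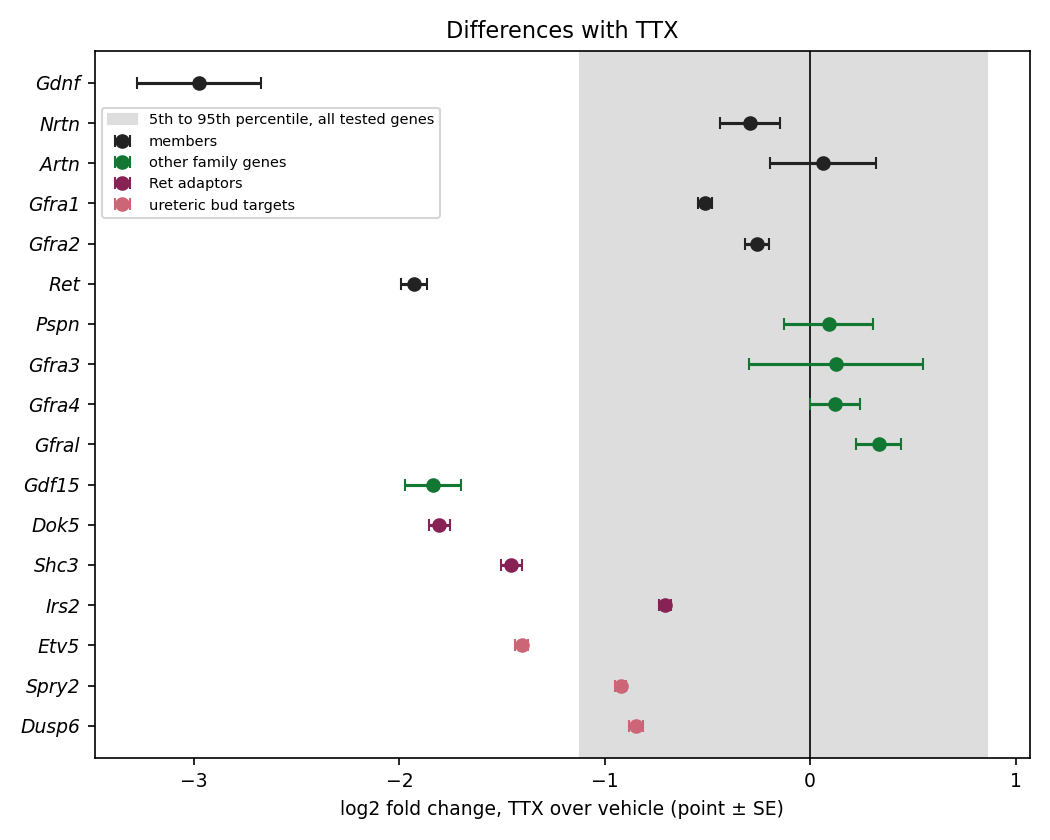
Log2 fold change of TTX over vehicle with its SE for the 6 members (black), the other 5 family genes (green), 3 Ret adaptors and 3 ureteric bud targets. The adaptors and bud targets shown had the lowest p of their lists. The grey band spans the 5th to 95th percentile of all 13088 tested genes, from -1.12 to 0.86, and Gdnf, Ret, Gdf15, Dok5, Shc3 and Etv5 lie to its left.

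Genes whose levels ran most like those of a member were found among 11835 genes with at least 1 CPM on average, by the root mean square difference of log2 CPM over the 10 libraries, each gene centred on its own mean. A prior count of 2 was added, which narrows the differences of rare genes such as Gdnf. Among the nearest to Gdnf were F2rl2, a protease-activated receptor, at 0.341, Cacng6, a calcium channel gamma subunit, at 0.348, Prr11 at 0.374 and Cd93 at 0.380. Their log2 fold changes were -3.10, -2.75, -2.56 and -2.57. Nearest to Ret, at much smaller distances, were Nid2, a basement membrane protein, at 0.0661, the glucose transporter Slc2a1 at 0.0781 and Lgi2 at 0.0905.

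Nearest to Gfra1 were Tmem200a at 0.0302, Ccni at 0.0357 and Pmvk at 0.0372, and nearest to Gfra2 were Bin3, Elac1 and Fbxw8 at 0.0596 to 0.0617. Ptbp3 and Lrrc7 were among the nearest to Nrtn, at 0.129 and 0.136. Artn had Lnpep, Wfikkn1 and RGD1309730 nearest at 0.176 to 0.197. The step between the groups enters this measure, and 70.5% of tested genes were called in one direction or the other.

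**Figure D5:**
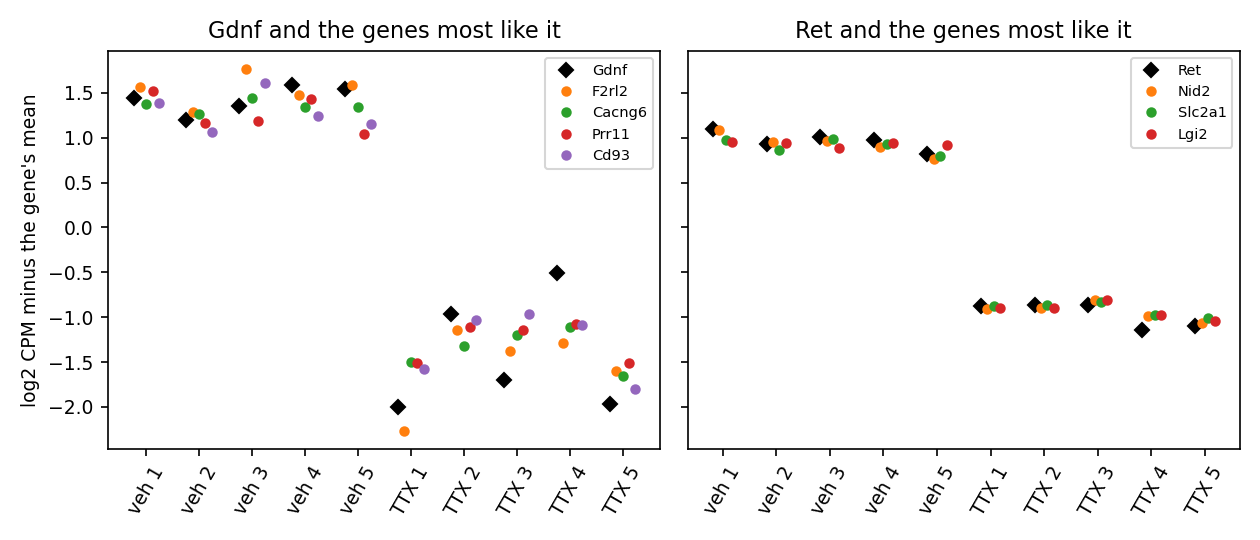
Log2 CPM of each gene minus its own mean in the 5 vehicle and 5 TTX libraries, for Gdnf with the 4 genes most like it (left) and Ret with the 3 most like it (right). The points of Ret and its 3 nearest genes stay close together in each library, whereas Gdnf, shown as black diamonds, scatters more in the TTX libraries.

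Markers of the cells in these cultures were read in the same libraries. Among all tested genes 35.4% rose and 35.0% fell, so calls of markers are common in this contrast. Neurons and glia were present, with summed CPM of 2475 to 2669 for 6 neuronal markers with vehicle and 2567 to 2691 with TTX, of which 2 rose and 1 fell. All 4 excitatory neuron markers rose, with sums of 1886 to 2092 CPM and 2486 to 2620 CPM, Neurod2 and Tbr1 by log2 fold changes of 1.42 and 1.40. Endothelial markers were near 0, at 0.981 to 1.47 summed CPM with vehicle and 0.622 to 0.764 with TTX. Of the 2 that were tested 1 fell and 1 did not pass, and Cldn5 and Cdh5 were not tested. Of 5 inhibitory neuron markers 3 (Gad1, Gad2 and Sst) fell and Slc32a1 and Pvalb did not pass, and their summed level was 1316 to 1424 CPM in the vehicle libraries and 919 to 976 CPM in the TTX libraries. All 4 mural and meningeal markers fell, with sums of 53.7 to 65.6 CPM and 26.3 to 35.8 CPM. Of 4 dopamine neuron markers, a cell type known for Ret, Th and Slc18a2 fell, Ddc did not pass and the dopamine transporter Slc6a3 had 0 to 14 counts per library. Their sum was 23.3 to 29.1 CPM with vehicle and 16.3 to 19.1 CPM with TTX.

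Of 7 astrocyte markers 5 rose and none fell, and their sum was 9853 to 11594 CPM with vehicle and 15196 to 17081 CPM with TTX. Aqp4 did not pass: it had 1795 and 1793 CPM in TTX replicates 1 and 2 but 272 to 340 CPM in replicates 3 to 5. Of 6 microglial markers 1 rose and 5 did not pass, with sums of 47.3 to 72.8 CPM and 45.5 to 135 CPM. All 4 oligodendrocyte markers rose, with sums of 766 to 1004 CPM and 1232 to 1385 CPM. Of 4 oligodendrocyte precursor markers Olig1 and Olig2 rose, Pdgfra fell and Cspg4 did not pass, with sums of 425 to 461 CPM and 643 to 676 CPM. Of 3 genes listed for peripheral glia Sox10 rose and the others did not pass, with sums of 63.4 to 80.9 CPM and 90.6 to 101 CPM. These levels do not show that peripheral glia were present. Of 2 cholinergic markers at low levels, Chat fell from 1.86 to 0.352 CPM and Slc5a7 rose from 2.12 to 4.26 CPM on average. The part of any of these cell types in the lower Gdnf, Ret, Gfra1 and Gfra2 levels was not tested.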

How the data were processed

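RNA of rat hippocampal cultures was sequenced in 5 vehicle and 5 TTX libraries. Per the labels' protocols, RNA had to have an integrity number over 9. The build rn6 and the tools HISAT2 2.1.0, StringTie and DESeq2 are listed in the submitters' processing notes. The read counter, its strand setting and its handling of read mates are not given in the sources used here. The authors deposited whole-number counts per gene and library. Beside them the authors gave FPKM, used here for levels per transcript length, and their own log2 fold changes and p-values, per the file headers. Of these only the fold changes of the 6 genes are quoted. Of 14608 lines, 254 repeats were collapsed, which left 14354 genes. Among counts from 1 to 20, 57% are even.

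Counts were tested in R 4.3.3 with edgeR 4.0.16 by the quasi-likelihood test (glmQLFTest after TMM scaling, two-sided). Genes were kept by filterByExpr at a count of 10 and a total of 15, and called at a Benjamini-Hochberg adjusted p below 0.05. This left 13088 genes. Each SE was obtained from the log2 fold change and the F statistic. Errors describe the variation among these libraries only, and few counts limit Gdnf, Artn and Gfra3. The members and lists were chosen with earlier results of these data known. Genes of a list without a value are not analysed here. Named genes were the members, the other family genes, the 4 activity genes, the genes most like a member and, per list, the 3 with the lowest p, and some of them are not reported here. Other genes outside the marker lists were named with their values known. All pairs of libraries within a group differed by more than counting error (chi-square over genes, divided by their number, 9.92 to 23.0). TTX replicates 1 and 2 gave the lowest value and TTX replicates 1 and 4 the highest. Alternatives were RLE, library-total and upper-quartile scaling, no filter, 1 CPM in 5 libraries, DESeq2 1.42.0, limma-voom (limma 3.58.1), dropping each library in turn and a replicate block. Halving every count was added after seeing the data. Promoter windows are RefSeq's on GRCr8, found for 5 of the 6 genes.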

Additional observations from a re-analysis of the deposited data

Results flagged for a closer look

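In 41 of the named genes, both groups of 5 were searched for a single library at a distance from the other 4. This was found in 3 of 82 such sets, and chance alone gives about 1 in 20. Nrtn stood at 3.22 CPM in vehicle replicate 1 against 2.71 to 2.83 CPM in the other vehicle libraries. Artn stood at 0.616 CPM in TTX replicate 2 against 0.340 to 0.406 CPM in the other TTX libraries. Ncam1 stood at 465 CPM in vehicle replicate 4 against 476 to 478 CPM in the other vehicle libraries.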

How the results depend on the processing

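The log2 fold change of Gdnf was -3.31 to -2.80 under 18 alternatives, and with a filter of 1 CPM in 5 libraries Gdnf was left out. Under all 19, Ret was at -1.97 to -1.89, Gfra1 at -0.55 to -0.49 and Gfra2 at -0.29 to -0.22. This contrast chose these genes, so the ranges only describe them. Leaving out each library in turn gave Nrtn -0.38 to -0.18, Artn -0.11 to 0.18, Gfra3 -0.12 to 0.40 and Pspn -0.048 to 0.25, and the number of coreceptor-list genes called lower was 1 to 3. That number was 1 instead of 2 with library totals, upper quartile scaling, no low-count filter and 1 CPM in 5 libraries. Nrtn was at -0.38 without TTX replicate 2, where it crossed the threshold, and at -0.18 without TTX replicate 4. Artn turned to -0.04 without vehicle replicate 3 and -0.11 without TTX replicate 2, Gfra3 to -0.01, -0.07 and -0.12 without vehicle replicate 1, vehicle replicate 2 and TTX replicate 4, and Pspn to -0.048 without vehicle replicate 5. The cause was not tested. The replicate numbers are not said to pair libraries, and deviations of same-numbered libraries correlated at -0.06 to 0.01, with 0 of 5 vehicle libraries closest to their own number. With a replicate block Gdnf was at -3.01, Ret at -1.93, 4572 genes were called higher and 4563 lower, and the members' calls were as without it. The order of the members' levels was as reported by median FPKM and by both pseudocounts, 0.01 and 1. Gdnf, Artn and Gfra3 are limited by few counts.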
